A study of Mus musculus with 32 samples.

Results

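A set of 7 genes known for keeping blood stem cells in their state, Mecom, Hlf, Mllt3, Prdm16, Meis1, Msi2 and Erg, were followed through 8 sorted fractions of mouse bone marrow at 2 ages. The 7 members were taken by their symbols from the table of raw gene counts, in which they are 7 of 24421 genes. All 7 passed the filter on low counts that left 14154 genes for testing. RNA was sequenced from hematopoietic stem cells (HSCs), multipotent progenitors (MPP1, MPP2, MPP3 and MPP4), GMPs (which give granulocytes and macrophages), MEPs (which give megakaryocytes and red cells) and CLPs (which give lymphocytes), all of C57BL/6 mice, 10 weeks old (Young) or 20 months old (Aged), with 2 libraries in each of the 16 groups. The mice were female and carried no transgene or treatment that the labels name, and the gates were the same at both ages. All fractions were sorted as negative for lineage antigens. HSCs and MPPs were Sca-1+ c-kit+ cells, divided by CD34, CD150, CD48 and Flt3 into CD34- CD150+ CD48- HSCs, CD34+ CD150+ CD48- MPP1, CD150+ CD48+ MPP2, CD150- CD48+ MPP3 and Flt3+ MPP4. GMPs were Sca-1- c-kit+ FcgR+ CD34+, MEPs lacked FcgR and CD34, and CLPs were positive for the IL-7 receptor (IL-7Ra+) and low in Sca-1 and c-kit. The study describes the marrow as pooled and then sorted in duplicate, and elsewhere calls its HSC samples for RNA biologically independent. With these statements apart, the spread between the 2 libraries of a group may be technical and may not cover differences from mouse to mouse.

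HSCs sit at the top of the blood hierarchy and pass through MPPs to progenitors of single lineages, and the genes that hold them at the top are switched down on the way. Of the members, 6 encode nuclear regulators: Mecom and Prdm16 are zinc finger proteins of the PR domain family, Hlf is a basic leucine zipper factor, Meis1 is a homeodomain factor that binds DNA with Pbx and Hox proteins, Erg is an ETS factor, and Mllt3 reads acylated histones within complexes for transcript elongation and for histone methylation by Dot1l. Msi2 is an RNA-binding protein that regulates translation and is grouped here for its role in stem cells, since it is not a transcription factor. Loss of Mecom, Hlf, Prdm16, Meis1 or Erg is known to impair mouse HSCs. In sorted bulk samples, fewer cells of a type and less RNA per cell cannot be told apart.

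All 7 genes are protein coding and lie on the minus strand in the GENCODE M21 annotation of GRCm38 (mm10). Mecom spans chr3:29951296-30548008, Hlf chr11:90336536-90390895, Mllt3 chr4:87769925-88033364, Prdm16 chr4:154316125-154636873, Meis1 chr11:18879817-19018985, Msi2 chr11:88339382-88718513 and Erg chr16:95359169-95586593. Counts were made over whole genes, with no stated use of strand, so they do not tell the start sites or isoforms of a gene apart. Exons of Mecom, Prdm16 and Meis1 overlap exons of antisense transcripts by up to 81, 109 and 896 bases, and Meis1 also overlaps Gm37818 on its own strand by 1029 bases. None of these partners has a row of its own in the count table, and their reads could not be told apart from those of the members.

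Promoters are shown for Hlf, Mllt3 and Meis1 because these were the members called lower with age in any single MPP fraction by edgeR with all libraries. Each sequence holds the 250 bases before a RefSeq start site (GRCm38.p6), read 5′ to 3′ on the strand of the gene, and all 7 members matched the RefSeq table. Capitals mark letters of short motifs bound by members, searched on both strands: TGACAG for Meis1, CGGAAGT for Erg and other ETS factors, TTACNTAA for Hlf and GACAAGATA for Mecom. Mllt3 has 2 start sites in the table and both are given.
Hlf, chr11:90390918-90391167: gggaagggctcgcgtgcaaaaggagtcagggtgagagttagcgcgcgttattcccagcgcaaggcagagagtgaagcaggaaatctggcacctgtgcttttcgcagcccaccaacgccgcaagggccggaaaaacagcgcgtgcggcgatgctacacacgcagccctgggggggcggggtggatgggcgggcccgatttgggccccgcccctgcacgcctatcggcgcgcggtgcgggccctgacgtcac
Mllt3 upstream start, chr4:88033408-88033657: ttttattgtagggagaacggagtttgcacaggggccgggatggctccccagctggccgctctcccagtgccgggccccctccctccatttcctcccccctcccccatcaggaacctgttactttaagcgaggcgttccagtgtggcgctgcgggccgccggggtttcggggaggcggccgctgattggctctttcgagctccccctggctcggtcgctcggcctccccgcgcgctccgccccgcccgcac
Mllt3 inner start, chr4:87806324-87806573: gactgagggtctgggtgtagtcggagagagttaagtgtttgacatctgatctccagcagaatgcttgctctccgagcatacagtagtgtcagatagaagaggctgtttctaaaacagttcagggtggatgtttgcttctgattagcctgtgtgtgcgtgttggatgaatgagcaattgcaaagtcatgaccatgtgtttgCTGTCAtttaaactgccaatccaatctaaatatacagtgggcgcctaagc
Meis1, chr11:19018970-19019219: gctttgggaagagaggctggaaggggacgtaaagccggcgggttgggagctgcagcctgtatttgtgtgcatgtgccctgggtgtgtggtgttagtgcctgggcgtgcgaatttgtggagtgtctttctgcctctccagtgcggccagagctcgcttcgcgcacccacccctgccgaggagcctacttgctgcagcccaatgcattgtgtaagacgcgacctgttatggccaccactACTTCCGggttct
The inner Mllt3 promoter holds the Meis1 motif at position -50 on the opposite strand. The Meis1 promoter holds the ETS motif at position -13, also on the opposite strand, and Hlf and the upstream Mllt3 promoter hold none of the 4 motifs. Among the other members, TGACAG stands at position -86 of 1 of 2 Mecom promoters and at positions -208 and -242 of 1 of 3 Erg promoters, and Prdm16 and Msi2 have no match. Of all 32851 promoters in the table, 15.9% hold TGACAG, 4.92% CGGAAGT, 2.06% TTACNTAA and 0.107% GACAAGATA. A match is a description of the letters and was not tied to binding in these data.

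The libraries held 11237384 to 17723245 counts, and levels are given as CPM, the counts scaled to library size with TMM factors. The upper limit behind a library at 0, taken as 3 counts, was 0.186 to 0.281 CPM. Such limits and the counting intervals cover counting error only, since the amplified reads had no molecular identifiers. In Young cells the sorting antigen genes named next were high in the fractions gated for them. Slamf1 (CD150) averaged 53.9 CPM in Young HSCs and 0.321 in Young MPP4, Flt3 averaged 1063 CPM in Young MPP4 and 27.9 in Young HSCs, Fcgr3 averaged 481 CPM in Young GMPs, and Il7r averaged 158 CPM in Young CLPs. Il7r also averaged 13.4 CPM in Young MEPs, whose gate was IL-7Ra-, and 0.309 CPM in Aged MEPs. Antigen genes differed with age within other gates too. By edgeR, Cd48 was called higher in Aged MPP1, a CD48- gate (log2 change 1.02, adjusted p = 4.1e-05), and in MPP2, MPP3 and MPP4 (0.69 to 0.74). Kit was called lower in Aged MPP1, MPP2 and MPP4 (-0.44 to -0.50), Fcgr3 in MPP2, MPP3 and MPP4, and Flt3 in HSCs (-0.82, adjusted p = 0.0079). Their part in the changes of the members was not tested. The libraries of a group differed by more than counting noise in all 16 groups. Young MEPs had the largest spread, with a root mean square difference of 0.840 on the log2 scale across genes, against 0.447 in Aged MPP2, the lowest.

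Compared per kilobase of exon in Young HSCs, Hlf had the highest level of the 7 at 102 ± 6.78 CPM per kilobase (SD, n = 2, as for every CPM value given with ±; log2 values are given ± the standard error of the fit). Meis1 followed at 47.0 ± 1.06, Erg at 28.9 ± 3.84, Mllt3 at 22.1 ± 1.19, Mecom at 14.8 ± 0.370, Prdm16 at 9.39 ± 0.358 and Msi2 at 5.72 ± 0.141 CPM per kilobase. With the longest annotated transcript as the length, Mllt3 at 43.6 and Mecom at 32.2 CPM per kilobase lay above Erg at 30.9, so the order in the middle of the list depends on the gene model.

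**Figure D1:**
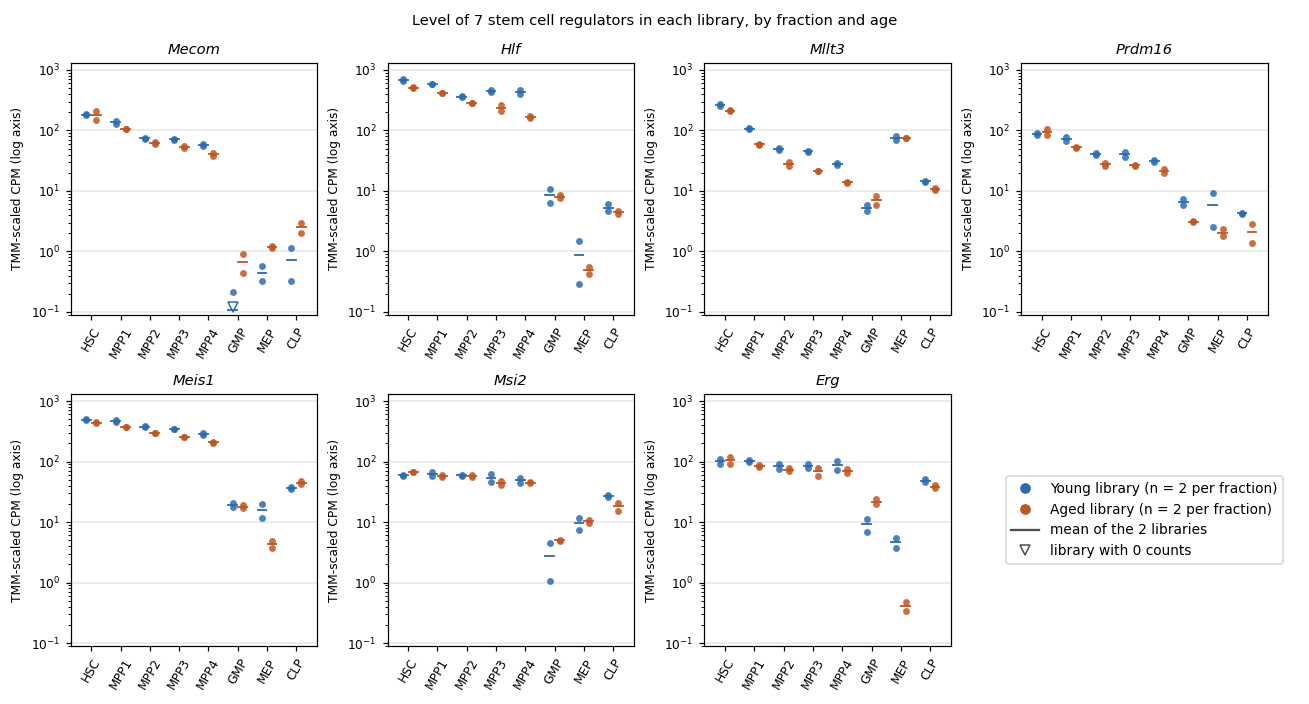
CPM of each member (vertical, log axis) in every library of the 8 fractions (horizontal), Young in blue and Aged in orange, with a line at the mean of 2 libraries and an open triangle for a library with 0 counts. Mecom, Hlf, Prdm16 and Meis1 drop sharply from MPP4 to GMPs, MEPs and CLPs, while Mllt3 in MEPs stays at 70.3 to 82.5 CPM at both ages.

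To see how far each member marks HSCs, HSCs were compared with each other fraction within each age. In Young cells 37 of 49 comparisons (7 members by 7 fractions) were called higher in HSCs at an adjusted p under 0.01, and 0 were called lower by edgeR or by DESeq2, nor was any lower at an unadjusted p under 0.05. In Aged cells 38 of 49 were called higher and 0 lower, also by both tools. Each of the 7 members was called higher in HSCs than in GMPs, MEPs and CLPs at both ages. Many other genes were too: of the 14154 genes tested, 32.8% were called higher in Young HSCs than in GMPs, 39% than in MEPs and 28.1% than in CLPs, and in Aged cells 29.8%, 38.8% and 27.4%. Against MPPs the counts were smaller. In Young cells 1 member was called higher in HSCs than in MPP1, where the share of all genes was 5.67%. There were 5 called higher than in MPP2 (all genes 16.1%), 5 than in MPP3 (12.8%) and 5 than in MPP4 (16.1%). In Aged cells the counts were 2 against MPP1 (10.5%), 5 against MPP2 (20.2%), 5 against MPP3 (19.7%) and 5 against MPP4 (22.5%). The members not called in MPP2, MPP3 and MPP4 at either age were Msi2 and Erg.

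Mllt3 dropped at the first step down the hierarchy. Its Young libraries held 255 and 275 CPM in HSCs, then 109 and 106 (MPP1), 51.3 and 47.1 (MPP2), 46.4 and 43.8 (MPP3) and finally 27.2 and 29.4 (MPP4). No value of one fraction overlapped those of HSCs, and Mllt3 was the only member called between Young HSCs and MPP1, with a log2 difference of 1.30 ± 0.10 (SE, adjusted p = 1.7e-09). In Aged cells the same difference was 1.86 ± 0.10 (adjusted p = 6.2e-12). MEPs stood apart from the other lineage progenitors: Mllt3 was at 82.5 and 70.3 CPM in Young and 74.5 and 75.2 CPM in Aged MEPs, above all MPP2, MPP3 and MPP4 libraries, and at 4.63 to 14.8 CPM in GMPs and CLPs of both ages. In the Young order, Mllt3 in MPP1 was above that in MEPs (0.49 ± 0.10, adjusted p = 0.00014), while in Aged cells MEPs were above MPP1 (0.35 ± 0.10, adjusted p = 0.0039).

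Mecom was barely counted outside HSCs and MPPs. Young HSCs held 187 and 180 CPM, MPP1 cells 142 and 129, MPP2 cells 75.4 and 73.2, MPP3 cells 69.7 and 72.1, and MPP4 cells 58.7 and 54.9. Beyond the MPPs there were 3 and 0 counts in the Young GMP libraries, 5 and 8 in MEPs and 4 and 14 in CLPs, against 2306 and 2764 counts in HSCs. The steps from MPP1 to MPP2 (0.87 ± 0.15, adjusted p = 0.00044) and from MPP4 to CLPs (6.26 ± 0.27, adjusted p = 5e-14) were called in Young cells. The step from HSCs to MPP1 was called in Aged cells (0.73 ± 0.15, adjusted p = 0.00069) and missed the threshold in Young cells (0.44 ± 0.15, adjusted p = 0.037).

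Hlf and Meis1 stayed high throughout the MPPs and then fell. Young HSCs held 714 and 650 CPM of Hlf, MPP1 cells 597 and 575, MPP3 cells 471 and 426, MPP4 cells 460 and 404, and MPP2 cells 368 and 355. Far below lay GMPs at 6.41 and 10.6 CPM, CLPs at 6.00 and 4.62, and MEPs at 1.47 and 0.287. No neighbouring fractions from HSCs down to MPP2 in this order differed in Young cells at an adjusted p under 0.01. The drop to GMPs was called (5.40 ± 0.20, adjusted p = 1.9e-15), as was that from CLPs to MEPs (2.53 ± 0.35, adjusted p = 1.4e-06). Meis1 was at 503 and 487 CPM in Young HSCs and at 297 and 274 in MPP4, with no called step between neighbours on the way. It was then at 38.0 and 35.8 CPM in CLPs, 20.5 and 17.8 in GMPs and 11.8 and 19.5 in MEPs. The step from MPP4 to CLPs was 2.95 ± 0.13 on the log2 scale (adjusted p = 5.2e-14).

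For Prdm16, Young HSCs held 89.8 and 85.1 CPM, MPP1 cells 76.8 and 66.3, MPP2 cells 42.4 and 39.2, MPP3 cells 37.1 and 43.5, and MPP4 cells 31.9 and 30.6. Of its neighbouring fractions, MPP4 and GMPs were the one pair called in Young cells (2.24 ± 0.29, adjusted p = 4.9e-07). GMPs at 7.27 and 5.94, MEPs at 2.56 and 9.26 and CLPs at 4.11 and 4.38 CPM did not differ beyond their spread, and the MEP libraries were the furthest apart.

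Msi2 and Erg were not called between HSCs and any MPP fraction. In Aged cells, however, both were higher in HSCs than in MPP3 and in MPP4 at an unadjusted p under 0.05 by edgeR. Msi2 was at 60.5 and 58.5 CPM in Young HSCs, 66.3 and 58.4 in MPP1 and 53.9 and 43.5 in MPP4, and Erg at 110 and 90.9 in HSCs, 107 and 98.1 in MPP1 and 104 and 73.7 in MPP4. The HSC and MPP1 libraries overlapped for both genes, the MPP4 libraries overlapped those of HSCs for Erg and lay below them for Msi2, and the log2 difference of HSCs from MPP4 was 0.29 ± 0.22 for Msi2 and 0.17 ± 0.19 for Erg. Both kept a sizeable level in CLPs, where Msi2 was at 27.9 and 26.3 and Erg at 45.9 and 50.8 CPM. The order below that differed between them. Msi2 was lowest in GMPs, at 1.07 and 4.49 CPM, under MEPs at 7.49 and 11.5 (1.75 ± 0.33, adjusted p = 7.6e-05), while Erg was lowest in MEPs, at 3.71 and 5.53, under GMPs at 6.91 and 11.3 CPM (0.99 ± 0.27, adjusted p = 0.0033).

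Over all 7 members, 19 of 49 neighbouring steps in the order of level were called in Young cells and 20 of 49 in Aged cells. Across all genes and all 28 pairs of fractions, whether neighbours in level or not, the share called was 42.4% in Young and 40.8% in Aged cells.

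**Figure D2:**
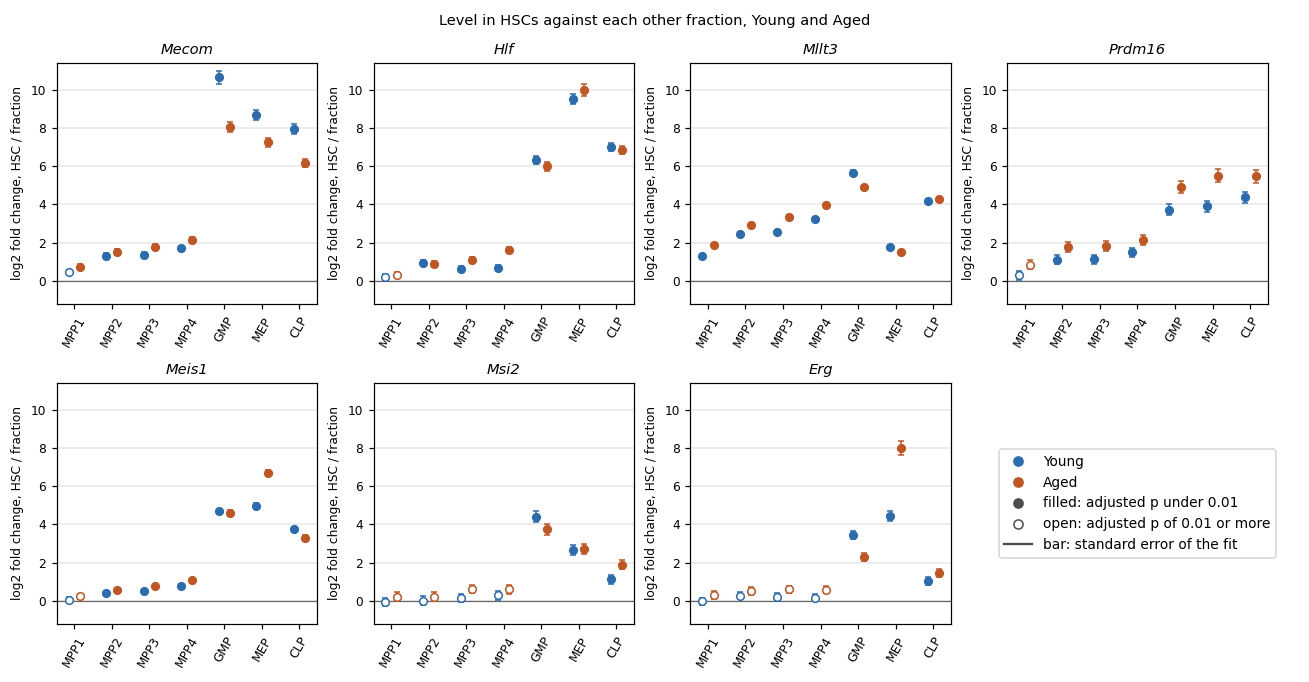
Log2 fold change of HSCs over each other fraction (vertical) for each member, Young in blue and Aged in orange, with bars for the standard error of the fit and filled points at an adjusted p under 0.01. All 7 members lie above 0 against GMPs, MEPs and CLPs at both ages, and Msi2 and Erg lie between -0.068 and 0.61 against the MPPs; the height of the Young GMP point of Mecom rests on 3 counts in all and depends on the prior count of the fit.

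The members were then compared between Aged and Young cells within each fraction. In HSCs, 0 of 7 were called by edgeR in either direction. Of all genes, 3.74% were called higher and 1.66% lower in Aged HSCs. At an unadjusted p under 0.05 there were 2, Hlf and Mllt3, and DESeq2 called both lower. The share of all genes at that unadjusted level is not given here. Hlf was at 714 and 650 CPM in Young and 524 and 500 in Aged HSCs, with no overlap, and its log2 change was -0.41 ± 0.16 (95% interval -0.74 to -0.08, adjusted p = 0.10 by edgeR and 0.0062 by DESeq2). Mllt3 was at 255 and 275 CPM in Young and 218 and 208 in Aged HSCs, a log2 change of -0.32 ± 0.10 (interval -0.52 to -0.11, adjusted p = 0.040 by edgeR and 0.0036 by DESeq2). For Mecom the Aged libraries, at 207 and 149 CPM, lay on either side of the Young ones at 187 and 180, and the interval of the log2 change ran from -0.35 to 0.27. The intervals were -0.39 to 0.60 for Prdm16, -0.41 to 0.07 for Meis1, -0.28 to 0.64 for Msi2 and -0.32 to 0.46 for Erg.

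Markers of other cells differed between the ages in the HSC libraries too. The 5 neutrophil markers summed to 54.5 to 58.7 CPM in Young and 271 to 300 in Aged HSCs, and all 5 were called higher. The 4 basophil and mast cell markers summed to 0.978 to 1.62 CPM in Young and 9.54 to 17.0 in Aged HSCs, with 3 of the 4 called higher, and Prss34, a basophil protease gene, had 0 and 0 counts in Young and 63 and 182 in Aged libraries. The 5 macrophage markers went from 30.8 to 39.0 CPM in Young to 14.5 to 21.7 in Aged HSCs, and of these Vcam1 alone was called (-2.88, adjusted p = 3.4e-07). Their part in the values of Hlf and Mllt3 was not tested.

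In the MPPs, every one of the 7 members had a fitted log2 change below 0 in each of MPP1, MPP2, MPP3 and MPP4, and none was called higher in any of them. The number called lower was 1 in both MPP1 and MPP2, 2 in MPP3 and 3 in MPP4. Of all genes 2.09%, 3.31%, 5.79% and 6.27% were called lower in these fractions, and 4.71%, 4.49%, 8.14% and 10.3% higher. From MPP1 to MPP4, DESeq2 called 3, 2, 4 and 4 members lower, beside 1661, 1857, 2762 and 3087 genes in either direction. With each fraction fitted alone, 5, 5, 3 and 3 members were called lower, beside 2421, 3336, 1294 and 1458 genes in either direction. The median log2 change of the 7 members, from MPP1 to MPP4, was -0.34, -0.35, -0.42 and -0.50, beside medians over all genes tested of between -0.04 and 0.00.

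Mllt3 was called lower in all 4 MPP fractions. Its Young libraries were at 109 and 106 CPM in MPP1 and its Aged ones at 59.8 and 57.4, a log2 change of -0.88 ± 0.10 (adjusted p = 6.9e-06). In MPP2 it went from 51.3 and 47.1 to 26.1 and 30.5 CPM (-0.80 ± 0.11, adjusted p = 4.2e-05). The change was -1.10 ± 0.11 in MPP3, from 46.4 and 43.8 to 21.1 and 21.1 CPM (adjusted p = 5.6e-07). In MPP4 it was -1.03 ± 0.12, from 27.2 and 29.4 to 13.4 and 14.2 CPM (adjusted p = 1.3e-06). The ages did not overlap in any of the 4, and the Aged level was 1.74 to 2.14 times lower.

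Hlf was called lower in MPP3 and MPP4. It went from 471 and 426 to 267 and 208 CPM in MPP3, a log2 change of -0.92 ± 0.16 (adjusted p = 0.00026). In MPP4 it went from 460 and 404 to 172 and 162 CPM, -1.37 ± 0.16 on the log2 scale or 2.59-fold lower (adjusted p = 2.5e-06). The ages were apart in MPP1 and MPP2 as well, at 597 and 575 against 422 and 418 CPM and at 368 and 355 against 283 and 284 CPM. Those log2 changes of -0.48 ± 0.16 (adjusted p = 0.048) and -0.35 ± 0.16 (adjusted p = 0.15) did not pass by edgeR with all libraries. DESeq2 called Hlf lower in MPP1, and the fit of each fraction alone called it lower in both MPP1 and MPP2. Without the lower of the Aged MPP3 libraries (replicate 2), the change in MPP3 was -0.71 (adjusted p = 0.017).

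Meis1 was called lower in MPP4, where it went from 297 and 274 to 204 and 214 CPM (-0.45 ± 0.12, adjusted p = 0.0057). That call was lost without any single one of the 4 MPP4 libraries, with adjusted p from 0.011 to 0.061. Its changes in the other MPP fractions were of like size, -0.33 ± 0.11 in MPP1, -0.36 ± 0.11 in MPP2 and -0.42 ± 0.11 in MPP3 (adjusted p = 0.061, 0.039 and 0.010), and the Aged libraries lay below the Young ones in each. Mecom changed by -0.50 ± 0.16 in MPP4, from 58.7 and 54.9 to 37.8 and 42.5 CPM (adjusted p = 0.023). Prdm16 changed by -0.44 to -0.60 in the 4 fractions and passed in none by edgeR with all libraries, while the fit of each fraction alone called it lower in MPP1 and MPP2. Msi2 changed by -0.03 to -0.28 and Erg by -0.17 to -0.33, and the ages overlapped in all 4 fractions for Msi2 and in all but MPP1 for Erg.

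The mean of the 4 age differences was also tested, a contrast added after these values had been seen. There were 5 members called lower, beside 17.7% of all genes: Mllt3 (-0.95 ± 0.05, adjusted p = 1.6e-11), Hlf (-0.78 ± 0.08, adjusted p = 6.1e-08), Prdm16 (-0.53 ± 0.13, adjusted p = 0.0013), Meis1 (-0.39 ± 0.06, adjusted p = 8.7e-06) and Mecom (-0.38 ± 0.08, adjusted p = 0.00033). Erg (-0.27 ± 0.09, adjusted p = 0.022) and Msi2 (-0.14 ± 0.11, adjusted p = 0.34) did not pass. Mllt3 and Hlf had the largest of these 5 changes.

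Markers of other cells moved with age in some of the MPP fractions. In MPP3 the 5 neutrophil markers summed to 1071 to 1076 CPM in Young libraries, against 173 to 235 in Aged ones, and in MPP2 to 651 to 691 against 249 to 255. None of the 5 was called in MPP1 (67.9 to 90.1 against 79.6 to 95.6 CPM) or in MPP4 (27.8 to 34.8 against 35.2 to 36.9 CPM). For the 5 macrophage markers the sums were 91.6 to 102 CPM against 24.1 to 24.4 in MPP3, 108 to 119 against 34.9 to 35.5 in MPP2, and 39.7 to 45.2 against 8.82 to 9.94 in MPP4, Young first, and in MPP1 25.2 to 27.4 against 11.8 to 12.1. The 5 erythroid markers summed to 214 to 220 CPM in Young and 38.7 to 48.0 in Aged MPP2, and to 168 to 321 against 38.6 to 43.0 in MPP3, while in MPP1 and MPP4 the ages overlapped. For the 5 megakaryocyte markers the sums were 321 to 331 CPM in Young and 288 to 298 in Aged MPP2, and 141 to 150 against 145 to 154 in MPP3. In MPP4 they were 31.9 to 35.9 against 28.2 to 28.6 CPM, and in MPP1 145 to 151 against 179 to 183. Of these markers, Ppbp (10.5 to 0.468 CPM in MPP2) and Gp9 were called lower in MPP2, MPP3 and MPP4, and Pf4 in MPP2 and MPP3. Itga2b had changes of 0.10, 0.35 and 0.15 in MPP2, MPP3 and MPP4 and was not called. The basophil and mast cell markers summed to 70.8 to 72.9 against 34.0 to 35.5 CPM in MPP2 and to 19.2 to 23.4 against 5.64 to 6.08 in MPP4, where Prss34 had 145 and 156 counts in Young and 0 and 0 in Aged libraries. The 5 stromal markers summed to 96.8 to 97.1 CPM in Young and 4.66 to 4.69 in Aged MPP3, where 3 of the 5 were at 0 in both libraries. All 5 neutrophil and all 5 macrophage markers had counts in each of the MPP2, MPP3 and MPP4 libraries. Their part in the change of the members was not tested.

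**Figure D3:**
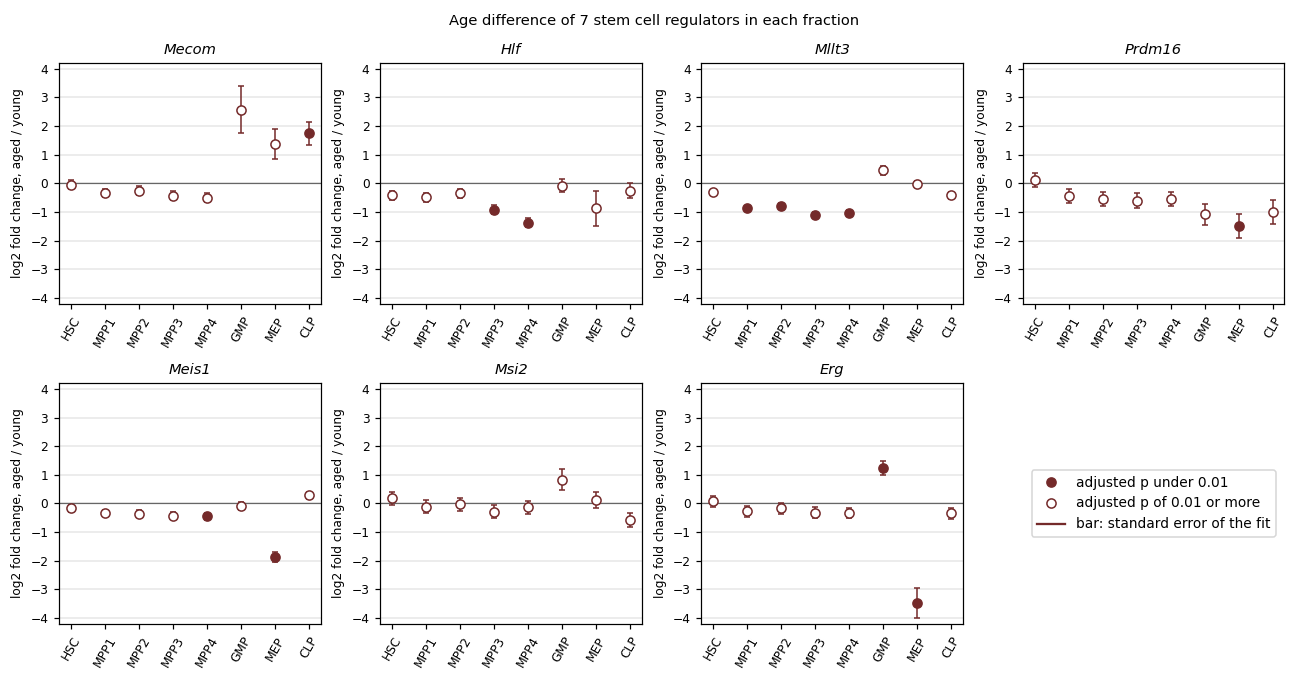
Log2 fold change of Aged over Young (vertical) of each member in the 8 fractions (horizontal), with bars for the standard error of the fit and filled points at an adjusted p under 0.01. Mllt3 lies between -0.80 and -1.10 in all 4 MPP fractions and near 0 in MEPs, and Erg points up in GMPs (1.24) and down in MEPs (-3.48).

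The lineage progenitors showed other changes. In GMPs 1 member was called higher and 0 lower, beside 9.93% of all genes higher and 8.97% lower. In MEPs 3 were called lower and 0 higher (all genes 11.7% lower and 9.08% higher). In CLPs 1 was called higher and 0 lower (all genes 5.71% higher and 4.73% lower). At an unadjusted p under 0.05 there were 5 members in GMPs, 4 in MEPs and 5 in CLPs, in either direction. The share of all genes at that unadjusted level is not given here, so these counts cannot be set against it. Msi2 had 1.07 and 4.49 CPM in Young and 4.92 and 5.08 in Aged GMPs (0.83 ± 0.37, adjusted p = 0.092), and without Young GMP replicate 2 its change was 2.20 (adjusted p = 0.00038).

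Erg moved in opposite directions in GMPs and MEPs. In GMPs it went from 6.91 and 11.3 CPM in Young to 23.6 and 19.6 in Aged libraries, a log2 change of 1.24 ± 0.23 (adjusted p = 0.00040). With the GMP libraries fitted alone by edgeR, Erg was not called (adjusted p = 0.019). Without Young GMP replicate 1 or Aged GMP replicate 1 the adjusted p was 0.015 and 0.011. In MEPs it went from 58 and 77 counts to 5 and 4, or from 3.71 and 5.53 to 0.469 and 0.344 CPM (-3.48 ± 0.52, adjusted p = 2.8e-05). The ratio of the summed counts, Aged to Young, was 0.0884 after scaling to the summed TMM-scaled library sizes, with a counting interval of 0.0396 to 0.173. In both fractions the ages were apart.

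Meis1 also fell in MEPs, from 11.8 and 19.5 to 4.78 and 3.79 CPM (-1.87 ± 0.17, adjusted p = 4.5e-08; 0.012 with the MEP libraries fitted alone). Prdm16 was at 2.56 and 9.26 CPM in Young and 1.78 and 2.32 in Aged MEPs (-1.49 ± 0.41, adjusted p = 0.0077), and that call was lost without Young MEP replicate 2 (-0.36, adjusted p = 0.45) and without Aged MEP replicate 1 or 2 (adjusted p = 0.063 and 0.029). Mllt3, the member with the highest level in MEPs, changed by -0.03 ± 0.10 there (95% interval -0.24 to 0.18). Hlf had 23 and 4 counts in the Young and 6 and 5 in the Aged MEP libraries, too few and too uneven to give a direction.

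The MEP libraries differed in more than these genes. The 5 B cell markers summed to 122 to 126 CPM in Young and 0.430 to 0.843 in Aged MEPs, where 3 of the 5 were at 0 in both libraries. Of these, Cd79a, a part of the B cell receptor, had 836 and 801 counts in Young and 0 and 0 in Aged libraries. The 5 macrophage markers summed to 5.53 to 7.23 CPM in Young MEPs and to 0 to 0.516 in Aged. Of the lineages that MEPs give, megakaryocyte markers summed to 66.6 to 72.0 against 39.5 to 41.5 CPM and erythroid markers to 494 to 566 against 203 to 213. Cd48, whose product is absent from HSCs, averaged 53.0 CPM in Young and 14.3 in Aged MEPs. The part of these differences in the changes of Erg, Meis1 and Prdm16 was not tested.

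Mecom was called higher in Aged CLPs, at a low level. It had 4 and 14 counts in Young and 26 and 40 in Aged CLP libraries, 0.329 and 1.13 against 2.01 and 2.97 CPM (1.75 ± 0.41, adjusted p = 0.0041). With the CLP libraries fitted alone by edgeR, Mecom was not called (adjusted p = 0.11). The ratio of the summed counts, scaled to library size in the same way, was 3.40, with a counting interval of 2.00 to 6.09. Without Young CLP replicate 1 the log2 change was 1.12 (adjusted p = 0.11), and without Aged CLP replicate 2 it was 1.43 (adjusted p = 0.061). Mecom also had more counts in Aged GMPs (5 and 10 against 3 and 0) and Aged MEPs (13 and 13 against 5 and 8). The ratios, scaled likewise, were 6.36 (counting interval 1.80 to 34.3) and 2.65 (1.31 to 5.62), with adjusted p = 0.022 and 0.048. The level in each remained under 3 CPM, against 149 to 207 CPM in HSCs.

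CLPs also differed between the ages in markers of other cells. The 4 basophil and mast cell markers summed to 1683 to 1733 CPM in Young and 7.64 to 12.0 in Aged CLPs, and of these Prss34 had 15610 and 16148 counts in Young libraries and 0 and 0 in Aged. The 5 macrophage markers summed to 129 to 144 CPM in Young and 2.60 to 3.24 in Aged CLPs. The 5 megakaryocyte markers went the other way, from 37.8 to 39.4 CPM in Young to 110 to 167 in Aged CLPs. Ly6a, which encodes Sca-1, averaged 35.2 CPM in Young and 214 in Aged CLPs. The 5 neutrophil markers summed to 536 to 543 CPM in Young and 80.6 to 145 in Aged CLPs. The 5 B cell markers, all called lower, summed to 1945 to 2015 CPM in Young and 838 to 850 in Aged CLPs. Erythroid markers summed to 387 to 412 CPM in Young and 72.0 to 81.3 in Aged CLPs. In GMPs, 5 erythroid markers summed to 170 to 196 CPM in Young and 1.42 to 10.2 in Aged libraries, and 5 neutrophil markers to 274 to 275 and 87.2 to 119. The macrophage genes C1qa, C1qb and C1qc were called lower in GMPs, with C1qb at 22 and 60 counts in Young and 0 and 0 in Aged libraries, while the sum with Vcam1 and Adgre1 was 134 to 150 CPM in Young and 102 to 138 in Aged. The part of these differences in the changes of Mecom and Erg was not tested.

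The count of calls of a member as lower depended on the Young MEP libraries. Over the 8 fractions there were 10 lower and 2 higher calls, and without Young MEP replicate 1 there were 17 lower calls, and without Young MEP replicate 2 there were 16. The 2 higher calls became 1 without any of Young GMP replicate 1, Aged GMP replicate 1, Young CLP replicate 1 and Aged CLP replicate 2. All libraries share 1 estimate of the spread, and the calls gained without a Young MEP library were of Meis1 in MPP1, MPP2 and MPP3 and of Prdm16 in MPP3, MPP4, GMPs and CLPs. DESeq2 called 19 lower and 2 higher. With the 4 libraries of each fraction fitted alone, 17 were called lower and 0 higher. Calls over all genes moved with these settings as well. In MPP2 the main fit called 636 genes higher and 469 lower, DESeq2 1857 in either direction and the fraction alone 3336. In CLPs the main fit called 808 higher and 670 lower, DESeq2 2153 in either direction and the fraction alone 128.

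To learn whether the age difference of a member varied between fractions, the one in each fraction was compared with the one in HSCs. Of 49 such differences 7 were called. In MPP1 this was 0 of 7 members (0.12% of all genes), in MPP2 again 0 (0.805%), in MPP3 and MPP4 1 each (2.12% and 3.13%), in GMPs and MEPs 2 each (11.7% and 13.1%) and in CLPs 1 (10.4%). In both MPP1 and MPP2, 1 member, Mllt3, had an unadjusted p under 0.05, a level at which the share of all genes is not given here. The change of Mllt3 was more negative in MPP3 than in HSCs (difference of log2 changes -0.78 ± 0.15, adjusted p = 0.0024) and in MPP4 (-0.72 ± 0.15, adjusted p = 0.0047), and in GMPs its change differed from that in HSCs upward (0.77 ± 0.18, adjusted p = 0.0042). The difference for Hlf in MPP4 was -0.96 ± 0.22 (adjusted p = 0.011). Erg differed in GMPs (1.17 ± 0.30, adjusted p = 0.0077) and in MEPs (-3.55 ± 0.56, adjusted p = 9.7e-05), Meis1 in MEPs (-1.70 ± 0.21, adjusted p = 4.1e-06) and Mecom in CLPs (1.80 ± 0.43, adjusted p = 0.0056). All these differences share the 4 HSC libraries. Over 36 other settings, 32 of which each left out 1 library, the Mllt3 call was kept in 20 in MPP4, 29 in MPP3 and 32 in GMPs, the Erg call in GMPs in 31 and the Mecom call in CLPs in 32, while the Erg and Meis1 calls in MEPs were kept in all 36. All losses came from leaving out 1 library, and for Mllt3 in MPP4 they included libraries of other fractions (adjusted p up to 0.046). Without Aged GMP replicate 1 the Mllt3 difference in GMPs was 0.53 (adjusted p = 0.083), without Young GMP replicate 1 that of Erg was 0.86 (adjusted p = 0.062), and without Young CLP replicate 1 that of Mecom was 1.19 (adjusted p = 0.092). The calls fell from 7 to 3 without Young HSC replicate 1 and also without Young HSC replicate 2, and rose to 12 and 11 without Young MEP replicates 1 and 2.

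A test of any difference in the age effect among the 8 fractions called 5 members, beside 34.9% of all genes. These were Mllt3 (adjusted p = 1.9e-06), Meis1 (8.1e-06), Erg (5.9e-05), Mecom (0.00078) and Hlf (0.0038). Prdm16 (adjusted p = 0.11) and Msi2 (0.19) did not pass.

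Lists of related genes were read on the same contrasts: 15 paralogs of the members, of which 13 were tested (Msi1 and Fev had too few counts), 23 partners and 22 other regulators of stem cells. Of the 22 other stem cell regulators, 2 were called lower in MPP1, 6 in both MPP2 and MPP3, and 5 in MPP4, and 0 were called higher in any of these. Of all genes 2.09%, 3.31%, 5.79% and 6.27% were called lower there. Their median log2 change was -0.34, -0.29, -0.34 and -0.27, beside -0.04 to 0.00 over all genes. In HSCs 2 were called lower, Myb (-0.39 ± 0.08, adjusted p = 0.0021) and Gfi1 (-0.92 ± 0.20, adjusted p = 0.0040), which encode a factor needed for progenitor growth and a zinc finger repressor.

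Nkx2-3, a homeodomain factor, was among the lowest adjusted p of this list in each MPP fraction. Its mean went from 126 ± 7.46 to 61.5 ± 1.23 CPM in MPP1, from 64.0 ± 4.91 to 27.7 ± 0.619 in MPP2, from 84.9 ± 4.71 to 33.0 ± 4.49 in MPP3 and from 148 ± 8.54 to 38.4 ± 1.11 in MPP4 (log2 change -1.95 ± 0.12, adjusted p = 3.1e-09). Hmga2, a chromatin protein of fetal stem cells, went from 9.70 ± 2.30 to 1.24 ± 0.288 CPM in MPP4 (-2.96 ± 0.40, adjusted p = 1.3e-05). Gfi1b, a repressor in the erythroid and megakaryocyte lineages, fell in MPP3 (-1.01 ± 0.15, adjusted p = 3.9e-05) and MPP4 (-1.07 ± 0.16, adjusted p = 4.7e-05). Lmo2, which bridges blood transcription factors, fell by less in MPP1 (-0.34 ± 0.06, adjusted p = 0.00034).

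Of the partners, 0 to 2 of 23 were called lower in HSCs and each MPP fraction, and 1 was called higher in HSCs and 1 in MPP4. Over all genes the shares called lower ran from 1.66% to 6.27%, and 3.74% were called higher in HSCs and 10.3% in MPP4. Ell2, an elongation factor of the complex that Mllt3 joins, was called lower in all 4 MPP fractions as Mllt3 was, from -0.50 ± 0.12 in MPP1 (adjusted p = 0.0091) to -1.28 ± 0.14 in MPP4 (adjusted p = 6.6e-07). In CLPs it was called higher (1.03 ± 0.13, adjusted p = 1.1e-05). Of the Meis1 partners, Hoxa9 fell in MPP4 from 127 ± 1.13 to 64.9 ± 8.91 CPM (-0.96 ± 0.15, adjusted p = 5.0e-05), and Pbx3 rose in HSCs from 17.7 ± 0.461 to 34.9 ± 2.42 CPM (0.97 ± 0.22, adjusted p = 0.0059). Syncrip, an RNA-binding partner of Msi2, was called higher in MPP4 (0.51 ± 0.11, adjusted p = 0.0017) and lower in GMPs (-0.55 ± 0.11, adjusted p = 0.00079).

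Among paralogs, Tef, a close relative of Hlf, was called lower in HSCs and all 4 MPP fractions. It went from 57.1 ± 0.0689 to 37.3 ± 0.728 CPM in HSCs (-0.61 ± 0.10, adjusted p = 0.00017) and by -0.40 to -0.75 in the MPPs. In MEPs Tef rose (0.54 ± 0.10, adjusted p = 0.00036). Fli1, the ETS factor closest to Erg, fell in MEPs with it, from 44.7 ± 15.8 to 7.28 ± 0.311 CPM (-2.62 ± 0.17, adjusted p = 1.4e-10). Mllt1, the paralog of Mllt3, was called higher in GMPs (0.65 ± 0.09, adjusted p = 8.9e-06) and MEPs (0.52 ± 0.09, adjusted p = 9.2e-05).

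In GMPs 4 of 13 paralogs, 6 of 23 partners and 5 of 22 other regulators were called higher, and 0, 1 and 3 lower, beside 9.93% of all genes higher and 8.97% lower. Summed over the 8 fractions there were 24 calls of a related gene as higher, and 13 without Aged GMP replicate 1. These sums are over 13 paralogs, 23 partners and 22 other regulators in each fraction, and of all genes 3.74% to 10.3% were called higher per fraction. The largest rise in GMPs was that of Egr1, an immediate early gene, which went from 0.349 ± 0.191 to 76.0 ± 9.90 CPM (7.72 ± 0.26, adjusted p = 1.6e-14). In CLPs Egr1 went down, from 234 ± 16.2 to 30.3 ± 1.10 CPM (-2.95 ± 0.15, adjusted p = 9.9e-12). Gata2, a factor of stem cells and of basophils and mast cells, went from 52.8 ± 5.54 to 2.50 ± 2.56 CPM in CLPs (-4.38 ± 0.30, adjusted p = 1.5e-09), beside the basophil and mast cell markers given above, whose part was not tested. Among the other regulators in MEPs, Gfi1 (-4.36 ± 0.56), Foxo1 (-1.39 ± 0.14) and Gata3 (-2.06 ± 0.29) were called lower, beside the B cell markers given above, whose part was not tested.

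**Figure D4:**
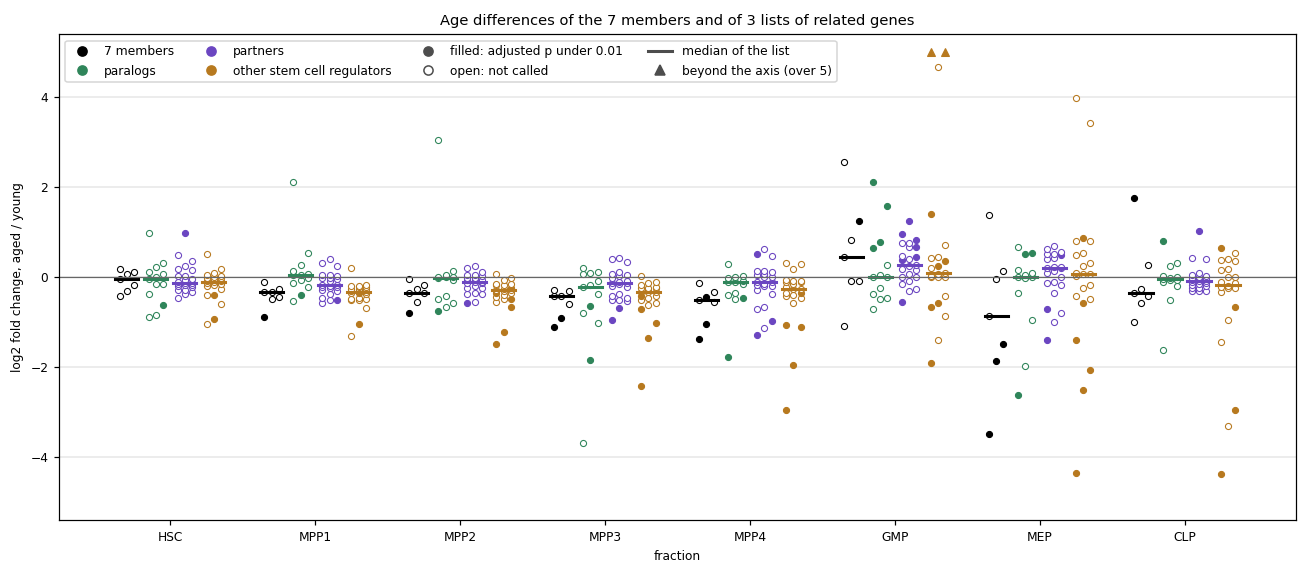
Log2 fold change of Aged over Young (vertical) in the 8 fractions (horizontal) for the 7 members (black), 13 paralogs (green), 23 partners (purple) and 22 other stem cell regulators (gold), with filled points at an adjusted p under 0.01, bars at the median of each list and triangles for values beyond 5. Members and other stem cell regulators have medians below 0 in all 4 MPP fractions, from -0.27 to -0.50.

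The members resembled each other to different degrees over the 16 group means of log2 CPM, which share their libraries with every gene compared. Hlf and Meis1 had the highest correlation of any pair (Pearson r = 0.97), and Hlf with Prdm16 (0.94), Mecom with Meis1 (0.94), Prdm16 with Meis1 (0.93) and Mecom with Hlf (0.93) came next. Mllt3 was the least like the others, at 0.13 with Erg, 0.38 with Hlf and 0.61 with Prdm16, its highest value. Among the 10676 genes that averaged 5 CPM or more, the 3 most like each member included Cdcp1 and Mllt4 for Mecom (r of 0.99 each). They were Ctla2b, Ppp2r3a and F2rl3 for Hlf (0.99), and Ormdl3, Ptpn14 and Tinagl1 for Mllt3 (0.96). The 3 were Obsl1, Morn4 and Fgd5 for Prdm16 (0.98 to 0.99), Cuedc1, Gcnt2 and Itm2a for Meis1 (0.99), C030037D09Rik, Abca1 and Phldb1 for Msi2 (0.98 to 0.99), and Fam49a, Ly75 and Tbc1d4 for Erg (0.99).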

How the data were processed

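RNA from 32 libraries was prepared by the authors with a low-input SMARTer kit without molecular identifiers, sequenced as single reads and, per the labels and the study's methods, aligned to mm10 with TopHat2 (2.0.13) and Bowtie2 (2.1.0). The deposited table holds raw counts per gene made by the authors with StringTie, and the use of strand is not given in the sources used here. The authors' normalized table and their 8 tables of DESeq2 fold changes and p-values were not used. Depth was 11237384 to 17723245 counts per library (median 13489610).

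Genes were filtered with filterByExpr over the 16 groups (14154 of 24421 kept). All 32 libraries were fitted in one edgeR (4.0.16, R 4.3.3) quasi-likelihood model with TMM factors (0.807 to 1.11), without a replicate block. P-values were adjusted by Benjamini-Hochberg within each contrast over all genes tested, and a gene was called at an adjusted p under 0.01. Alternatives were DESeq2 (1.42.0), its size factors, no filter, a fit of the fraction or age alone, a replicate block, a level of 0.05, a size minimum of 0.5 on the log2 scale, and each library left out. Correlations used log2 CPM with a prior count of 2. Counting intervals of count ratios are 95% exact Poisson ones. The edgeR fit was tested on simulated counts with changes in HSCs only and the same spread for every gene and group. That test does not cover groups of unequal spread or the other fractions. All 7 members are named, and of each related list up to 3 called genes per contrast with the lowest adjusted p; some results that this rule would name are not reported here. Members, lists and contrasts were chosen with earlier results of these data known. The labels do not say that the libraries of a group came from separate animals, so p-values measure the spread between these samples. That spread was estimated for each gene over all 16 groups together, although groups differed in it, with a root mean square difference of 0.447 in Aged MPP2 and 0.840 in Young MEPs.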

Additional observations from a re-analysis of the deposited data

Results flagged for a closer look

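For 7 results the age difference in a fraction differed from that in HSCs by a test of the difference itself (edgeR, adjusted p under 0.01, log2 scale). Mllt3 differed by -0.78 in MPP3 (adjusted p = 0.0024), by -0.72 in MPP4 (adjusted p = 0.0047) and by 0.77 in GMPs (adjusted p = 0.0042). Meis1 differed by -1.70 in MEPs (adjusted p = 4.1e-06). Erg differed by 1.17 in GMPs (adjusted p = 0.0077) and by -3.55 in MEPs (adjusted p = 9.7e-05). Mecom differed by 1.80 in CLPs (adjusted p = 0.0056). Of 36 other settings, the call was kept in 20 for Mllt3 in MPP4, 29 in MPP3 and 32 in GMPs, in 31 for Erg in GMPs and in 32 for Mecom in CLPs, and both MEP calls were kept in all 36. Without Aged GMP replicate 1 the difference of Mllt3 in GMPs was 0.53 (adjusted p = 0.083), without Young GMP replicate 1 that of Erg was 0.86 (adjusted p = 0.062), and without Young CLP replicate 1 that of Mecom was 1.19 (adjusted p = 0.092).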

How the results depend on the processing

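With 2 libraries a group, no group was large enough to test for an outlying sample. Low counts limit Mecom in GMPs, MEPs and CLPs, and Hlf and Erg in MEPs. Counts here are calls of a gene in a fraction, summed over the fractions. With age, the main fit called 3.74% to 10.3% of all genes higher and 1.66% to 11.7% lower per fraction. DESeq2 made 19 calls of members lower with age against 10, 12 of differences from HSCs against 7, and 78 of related genes lower against 49. The fraction fitted alone gave 0 calls of members higher against 2, 17 lower, and 15 of related genes higher against 24. Calls over all genes moved under both settings too, as given above for MPP2 and CLPs. At an adjusted p under 0.05 there were 5 calls of members higher, 17 lower, and 40 and 83 of related genes higher and lower. The share of all genes called at that level is not given here. In the mean over MPPs, a single contrast, a size of at least 0.5 left 3 members lower against 5. With 1 library left out, calls of members higher ranged from 1 to 3, of members lower from 9 to 17, of differences from HSCs from 3 to 12 and of related genes higher from 13 to 28.

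The log2 changes that turned sign without 1 library lay near 0 or rested on low counts. They ranged from -0.34 to 0.16 for Mecom, -0.064 to 0.22 for Prdm16 and -0.15 to 0.22 for Erg in HSCs. For Msi2 they ranged from -0.067 to 0.032 in MPP2, -0.28 to 0.032 in MPP4 and -0.18 to 0.42 in MEPs. For Hlf the range was -0.41 to 0.31 in GMPs and -1.61 to 0.73 in MEPs, for Meis1 in GMPs -0.21 to 0.013, and for Mllt3 in MEPs -0.19 to 0.058. The cause of these shifts was not tested. Within a fraction, the same replicate numbers of the 2 ages did not deviate together (correlations from -0.06 to 0.07). Whether they deviate together between fractions of the same age is not given here, so a pairing of fractions sorted from the same marrow remains possible. The replicate block, a shift common to all groups, gave 2 calls of members higher and 10 lower. Leaving out libraries was not run for the count of neighbouring steps.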
